A study of Homo sapiens with 6 samples.

Results

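The proteins that read N6-methyladenosine (m6A) on RNA and the enzymes that remove it were followed at the transcript level after the m6A writer METTL3 was targeted for degradation. The set was chosen by gene name and function, with earlier results of these data known, and holds 8 readers (YTHDF1, YTHDF2, YTHDF3, YTHDC1, YTHDC2, IGF2BP1, IGF2BP2 and IGF2BP3) and 2 demethylases (FTO and ALKBH5). These are 10 of the 56305 gene symbols counted, and 10 of 10 passed the filter on low counts that left 20399 genes to be tested.

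RNA was sequenced from MOLM13, a human acute myeloid leukemia (AML) cell line that carries an internal tandem duplication of FLT3 (FLT3-ITD) and the t(9;11)(p22;q23) translocation. Cells had been given DMSO as the vehicle (3 libraries) or 1 µM ZW27941 (3 libraries) for 24 h. ZW27941 is a proteolysis-targeting chimera (PROTAC), a molecule with one end that binds METTL3 and another that binds the VHL E3 ligase, so that METTL3 is passed to the proteasome. Only 1 cell line, 1 dose and 1 time were sequenced, and no library from an inactive control compound was analysed here, so effects of METTL3 loss and other effects of the compound cannot be told apart. Nothing in the labels says whether the 3 libraries of a group came from separate cultures, so p-values measure the spread between these libraries, which may be technical.

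In cells, m6A is written mostly within a short sequence built around GGACT by a nuclear complex in which METTL3 is the catalytic subunit and METTL14 its partner. Readers with a YTH domain hold the methyl group in an aromatic pocket. The cytoplasmic YTHDF proteins are best known for speeding decay and affecting translation of methylated mRNA, and YTHDC1 acts in the nucleus on splicing and export. IGF2BP proteins bind through KH domains and are known for keeping target mRNAs stable. FTO and ALKBH5 are iron- and 2-oxoglutarate-dependent dioxygenases that take the methyl group off. Several of these proteins have been linked to the growth or survival of AML cells.

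The upstream sequences are shown because the results below concern how much transcript each of these genes gave, and RefSeq (GRCh38.p14) had 10 upstream windows of 250 bases for 8 of the 10 genes. IGF2BP1 and YTHDF3 had no entry. The first pair below are stretches before a start of YTHDF2 (chr1:28736374-28736620, plus strand) and of ALKBH5 (chr17:18183578-18183827, plus strand). Both lie outside exons of GENCODE v29, and the second is inside the span of the ALKBH5 gene. Capitals mark GC boxes, the letters GGGCGG on either strand, of which copies may overlap.
YTHDF2: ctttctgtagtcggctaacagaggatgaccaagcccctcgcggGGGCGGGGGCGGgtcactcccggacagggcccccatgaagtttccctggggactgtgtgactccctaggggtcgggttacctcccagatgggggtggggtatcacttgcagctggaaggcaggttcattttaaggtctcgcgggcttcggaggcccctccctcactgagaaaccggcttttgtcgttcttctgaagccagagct
ALKBH5: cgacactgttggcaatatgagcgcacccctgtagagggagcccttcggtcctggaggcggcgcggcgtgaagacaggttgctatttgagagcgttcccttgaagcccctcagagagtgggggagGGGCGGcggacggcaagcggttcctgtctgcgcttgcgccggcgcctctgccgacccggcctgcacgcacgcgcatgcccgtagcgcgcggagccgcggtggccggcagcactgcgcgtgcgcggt

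The motifs below were searched on both strands, and they were chosen after the windows had been seen. A GC box was in 7 of the 10 windows and in 42.6% of 35116 RefSeq windows of the same length, and a CCAAT box (CCAAT) was in 3 of 10 and 32.0%. An ETS motif (CCGGAAG) was in 0 of 10 windows and in 8.52% of all. The remaining motifs occurred in few windows, shown here with the motif in capitals and 7, 8 or 5 bases on each side. The cAMP response element TGACGTCA, found in 1.65% of all windows, was in those of both YTHDC genes, at chr4:68350173-68350194 (minus strand) for YTHDC1 and chr5:113513669-113513690 (plus strand) for YTHDC2. The E-box CACGTG, found in 6.34% of all windows, was in those of YTHDF1 (chr20:63216329-63216350, minus strand) and IGF2BP3 (chr7:23470652-23470673 and chr7:23470624-23470645, minus strand). The ZNF143 motif known as SBS, found in 1.67% of all windows, occurred at 2 places before a start of FTO (chr16:53703906-53703927 and chr16:53704041-53704062, plus strand) and is read there on the opposite strand. The window before this RefSeq start lies inside the span of the FTO gene in GENCODE v29, with 226 of its 250 bases in exons of FTO or RPGRIP1L. A match of letters is a description and does not show that a factor was bound.
YTHDC1: gacgcgcTGACGTCAcgtcacg
YTHDC2: gccctggTGACGTCAttacgcc
YTHDF1: acacgcccCACGTGacttcccc
IGF2BP3, farther from the start: ggattcctCACGTGagacgttg
IGF2BP3, nearer to the start: agtttgaaCACGTGgctcattc
FTO, farther from the start: ctcctGGGAAATGTAGTtctcc
FTO, nearer to the start: atcctGGGAGTTGTAGTttttt

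The libraries held between 143454176 and 178744976 counts on genes, and TMM factors, which scale library sizes so that most genes match, ran from 0.994 to 1.01. The METTL3 transcript was at 122 ± 1.17 CPM, that is, normalized counts per 1e6 (SD, n = 3), in DMSO and 123 ± 4.96 (SD, n = 3) on ZW27941, and since the compound acts on the protein this does not check the labels. Of 10 myeloid markers, 9 were above 1 CPM and CD68 was at 0.23 CPM in DMSO. Their summed level was 2581 to 2651 CPM in DMSO and 2829 to 2908 on ZW27941. By the test described below, 5 of the 10 were higher on ZW27941, beside 16.3% of all genes tested. They were CSF1R, LYZ, SPI1, MPO and CEBPA, the last 3 named after their values were seen, like CD68. Of 10 lymphoid, erythroid and epithelial markers, 3 were above 1 CPM and 6 were under 0.1 CPM. HBB, named after its value was seen, was at 0 in every library. The summed level of these 10 was 22.01 to 22.68 CPM in DMSO and 18.84 to 20.24 on ZW27941. KRT18, the 1 gene of this list that passed, fell from 12.7 to 10.2 CPM (adjusted p = 2.33e-05 from edgeR). CD79A, next by p, was at 1.54 CPM in DMSO and 1.31 CPM on ZW27941 and did not pass (adjusted p = 0.106 from edgeR). ZW27941 replicate 3 had the largest share of reads aligned to several places, 5.25% against at most 4.07% in DMSO. In bulk RNA, a change in the mix of cell states and a change of RNA per cell cannot be told apart, and the part that these differences had in the results was not tested.

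With ZW27941, 4 of the 10 transcripts rose (YTHDF1, YTHDF2, FTO and ALKBH5), 0 fell and 6 did not pass the test. The test was the quasi-likelihood test of edgeR, with p adjusted by Benjamini-Hochberg over all genes tested and called at an adjusted p under 0.05. By the same test 30.1% of all genes changed, 16.3% upward and 13.8% downward. With upper quartile normalization, 30.8% of genes changed, 13.0% upward and 17.9% downward, and the members were 4 higher and 1 lower. Before adjustment, 5 members were higher and 1 was lower with p under 0.05, and by DESeq2's Wald test 4 were higher and 1 was lower. The rises were small, from 7.59% for YTHDF1 to 15.4% for FTO. The median log2 fold change of the 10 transcripts was 0.047, beside −0.0019 over all genes tested. For scale, genes that passed had an absolute log2 fold change of 0.17 at the median. The libraries of DMSO and ZW27941 did not overlap for 6 members, 5 higher and 1 lower, while 41.6% of all genes did not overlap (21.7% higher and 19.9% lower). All 10 members were at higher levels than the median gene tested, which was at a log2 CPM of 2.82. Shares among genes of like level were not computed.

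**Figure D1:**
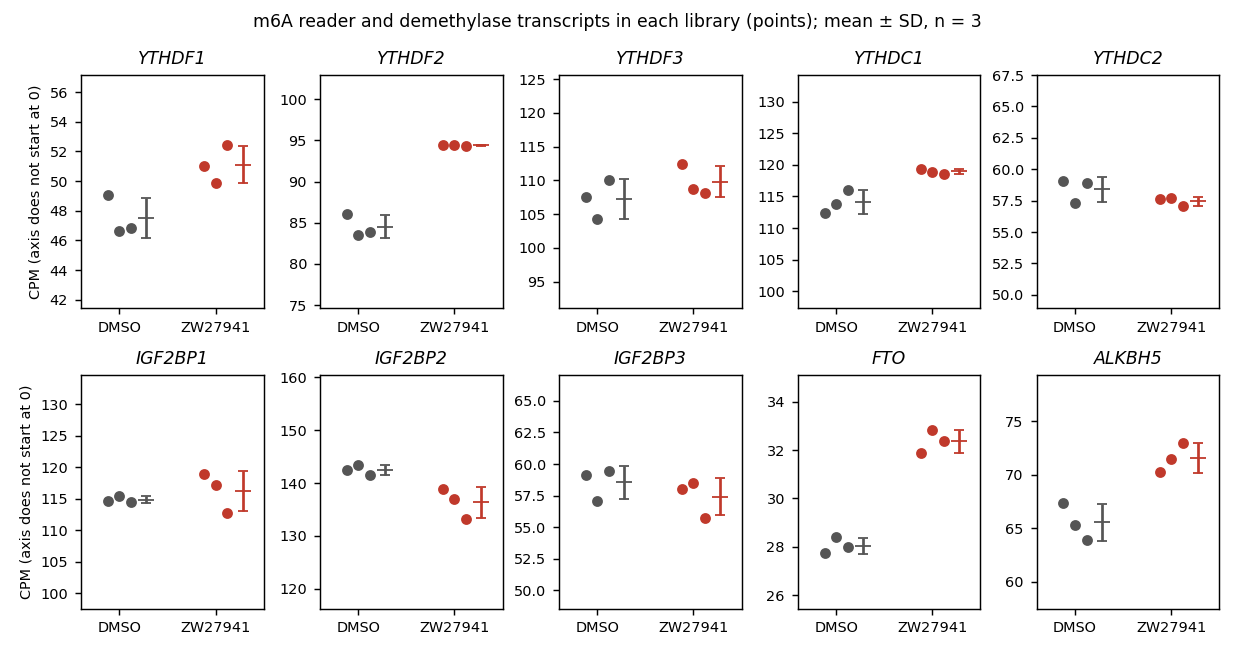
Each panel plots the CPM of 1 transcript (vertical axis, not starting at 0) in the 3 DMSO libraries (grey points) and the 3 ZW27941 libraries (red points), in the order of the replicate numbers, with the mean ± SD beside them. All ZW27941 points of YTHDF1, YTHDF2, YTHDC1, FTO and ALKBH5 lie above the DMSO points, those of IGF2BP2 lie below, and the groups of the other 4 overlap.

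Among the YTHDF readers, 2 of 3 rose. YTHDF2 (chr1:28736621-28769775, plus strand, GRCh38), which brings the CCR4-NOT deadenylase to methylated mRNA, was at 86.1, 83.5 and 83.9 CPM in DMSO replicates 1 to 3 and at 94.5, 94.4 and 94.3 CPM on ZW27941. The ZW27941 libraries all lay above the DMSO libraries and were nearly identical to each other. Their coefficient of variation, 0.095%, was below the 0.81% that counting error alone gives on average, and 3 values estimate such a spread poorly. Between groups, YTHDF2 had a log2 fold change of 0.16 (SE 0.025, adjusted p = 4.26e-05 from edgeR) and a rise of 11.7%.

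YTHDF1 (chr20:63195429-63216234, minus strand), known for promoting translation of methylated mRNA, was at 49.1, 46.6 and 46.9 CPM in DMSO and at 51.0, 49.9 and 52.4 CPM on ZW27941. The groups did not overlap, but ZW27941 replicate 2 was only slightly above DMSO replicate 1. The log2 fold change was 0.11 (SE 0.030, adjusted p = 0.0089 from edgeR), with a 95% confidence interval of 0.044 to 0.17. YTHDF3 (chr8:63168553-63212786, plus strand), which works with both of its relatives, did not pass. It was at 107.5, 104.2 and 110.1 CPM in DMSO and at 112.5, 108.7 and 108.2 CPM on ZW27941, with overlapping groups. Its log2 fold change was 0.034, with an interval of −0.022 to 0.090 (adjusted p = 0.374 from edgeR). It was 0.014 without DMSO replicate 2, 0.016 without ZW27941 replicate 1 and 0.054 without DMSO replicate 3.

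The sum of the 3 YTHDF transcripts was 239 ± 4.34 CPM (SD, n = 3) in DMSO and 255 ± 2.49 CPM on ZW27941. The groups did not overlap. Within the sum, the share of YTHDF2 went from 35.3% ± 0.43 to 37.0% ± 0.35 (SD, n = 3) and that of YTHDF3 from 44.8% ± 0.77 to 43.0% ± 0.58. Neither share overlapped between groups, and both gave p = 0.1 in a two-sided exact permutation test, the smallest p that 3 against 3 libraries allow (adjusted p = 0.133 over the 8 shares tested in all families). YTHDF1 was at 19.86% ± 0.38 and 20.02% ± 0.48, with overlapping groups (exact permutation p = 0.7). These shares do not depend on the scaling between libraries, but they do depend on transcript length. Per kb of the longest coding transcript in GENCODE v29, YTHDF2 held 45.2% in DMSO and 46.8% on ZW27941. On that scale YTHDF3 held 32.3% and 30.7%, and YTHDF1 22.51% and 22.47%. Here and in the families below, the shares of a family add up to the whole, so they are not independent results. The share of YTHDF3 was lower on ZW27941 although its mean was 107.3 CPM in DMSO and 109.8 CPM on ZW27941.

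Neither YTHDC reader passed the test. YTHDC1 (chr4:68310387-68350089, minus strand), the nuclear YTH reader, was at 112.3, 113.8 and 116.1 CPM in DMSO and at 119.4, 118.9 and 118.5 CPM on ZW27941. Every ZW27941 library was above every DMSO library, and the spread was smaller on ZW27941. For YTHDC1 the log2 fold change was 0.061 (SE 0.024, unadjusted p = 0.0214, adjusted p = 0.0659 from edgeR), with an interval of 0.0099 to 0.11. With library sizes unscaled the adjusted p was 0.0334, which passed.

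YTHDC2 (chr5:113513683-113595285, plus strand), a YTH protein with an RNA helicase domain that is best known from meiosis, was at 59.1, 57.3 and 58.9 CPM in DMSO and at 57.7, 57.7 and 57.1 CPM on ZW27941. The groups overlapped through DMSO replicate 2. For YTHDC2 the log2 fold change was −0.024, with an interval of −0.078 to 0.031 (adjusted p = 0.551 from edgeR). The share of YTHDC1 in the YTHDC pair was 66.1% ± 0.53 in DMSO and 67.4% ± 0.086 on ZW27941 (SD, n = 3), without overlap (exact permutation p = 0.1, adjusted p = 0.133).

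The 3 IGF2BP transcripts gave 0 calls in either direction by edgeR. IGF2BP2 (chr3:185643739-185825056, minus strand), an RNA-binding protein linked to amino acid metabolism in AML, was at 142.4, 143.5 and 141.5 CPM in DMSO and at 138.9, 136.95 and 133.2 CPM on ZW27941. It was the only member with all ZW27941 libraries below all DMSO libraries. For IGF2BP2 the log2 fold change was −0.063 (SE 0.025, unadjusted p = 0.0181, adjusted p = 0.058 from edgeR), with an interval of −0.11 to −0.012. IGF2BP2 passed as lower in 5 of 15 other settings, including DESeq2's Wald test (−0.067, adjusted p = 0.0258), and its sign was negative in all 15.

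IGF2BP1 (chr17:48997412-49055650, plus strand), an oncofetal RNA-binding protein, was at 114.6, 115.5 and 114.5 CPM in DMSO and at 118.9, 117.2 and 112.8 CPM on ZW27941. The ZW27941 libraries lay on both sides of the DMSO libraries. Its log2 fold change was 0.018, with an interval of −0.036 to 0.071 (adjusted p = 0.654 from edgeR), and it was −0.0058 with upper quartile normalization. IGF2BP3 (chr7:23310209-23470467, minus strand), also oncofetal and linked to leukemias with MLL rearrangement, was at 59.1, 57.0 and 59.5 CPM in DMSO and at 58.0, 58.5 and 55.8 CPM on ZW27941. The groups overlapped, and the log2 fold change was −0.028 with an interval of −0.087 to 0.031 (adjusted p = 0.498 from edgeR).

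Of the 10 transcripts, 7 had their lowest ZW27941 value in replicate 3, among them all 3 IGF2BP transcripts. The lowest DMSO value was in replicate 1 for 2 transcripts, in replicate 2 for 5 and in replicate 3 for 3. Such counts were not made over all genes tested. ZW27941 replicate 3 also had the most reads aligned to several places, and whether that had a part was not tested. Without ZW27941 replicate 3 the log2 fold changes were 0.037 for IGF2BP1, −0.049 for IGF2BP2 and −0.010 for IGF2BP3. The sum of the 3 transcripts was 316 ± 0.43 CPM in DMSO and 310 ± 7.35 CPM on ZW27941 (SD, n = 3), and the groups overlapped. Within the sum, IGF2BP1 went from 36.4% ± 0.16 to 37.5% ± 0.14 and IGF2BP2 from 45.1% ± 0.28 to 44.0% ± 0.17, both without overlap (exact permutation p = 0.1, adjusted p = 0.133). IGF2BP3 was at 18.5% ± 0.43 and 18.5% ± 0.17 (exact permutation p = 1.0). Per kb of longest coding transcript, IGF2BP1 held 20.9% in DMSO and 21.8% on ZW27941. On that scale IGF2BP2 held 58.3% and 57.3%, and IGF2BP3 20.8% and 20.9%.

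Exons of IGF2BP3 share 17.9% of their bases with exons of MALSU1 on the opposite strand, and whether counting used the strand is not given in the sources used here. MALSU1 was chosen after its values were seen, and was at 15.9 CPM in DMSO and 16.4 CPM on ZW27941 (log2 fold change 0.050, adjusted p = 0.415 from edgeR).

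Both demethylases rose. FTO (chr16:53701692-54158512, plus strand), the AlkB-type enzyme first known from obesity genetics and reported as an oncogene in AML, was at 27.74, 28.40 and 27.97 CPM in DMSO and at 31.88, 32.84 and 32.40 CPM on ZW27941. The ZW27941 libraries were all above the DMSO libraries, with a gap wider than the range of either group. The log2 fold change of FTO was 0.21 (SE 0.030, adjusted p = 1.6e-05 from edgeR), with an interval of 0.15 to 0.27. It was the largest of the 10 in TMM-normalized counts and higher than that of 86.1% of all genes tested.

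ALKBH5 (chr17:18183078-18209954, plus strand), the other m6A demethylase, was at 67.4, 65.3 and 63.9 CPM in DMSO and at 70.2, 71.5 and 73.0 CPM on ZW27941. The groups did not overlap. The log2 fold change was 0.13 (SE 0.028, adjusted p = 0.0013 from edgeR), a rise of 9.17%. Of the exonic bases of ALKBH5, 11.2% overlap an antisense gene of GENCODE v29 whose symbol is not among those counted. Whether it was counted under another name is not known. The summed level of both demethylases was 93.6 ± 1.60 CPM in DMSO and 103.9 ± 1.67 CPM on ZW27941 (SD, n = 3), without overlap. The share of FTO in that sum was 30.0% ± 0.70 in DMSO and 31.1% ± 0.38 on ZW27941 (exact permutation p = 0.1, adjusted p = 0.133). The difference of 1.18 percentage points was 0.78 without DMSO replicate 1, and 0.47 per kb of longest coding transcript, on which scale FTO held 9.09% and 9.56%. RPGRIP1L, which starts beside FTO on the opposite strand and was chosen after its values were seen, was at 5.35 CPM in DMSO and 5.30 CPM on ZW27941 (log2 fold change −0.012, adjusted p = 0.913 from edgeR).

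**Figure D2:**
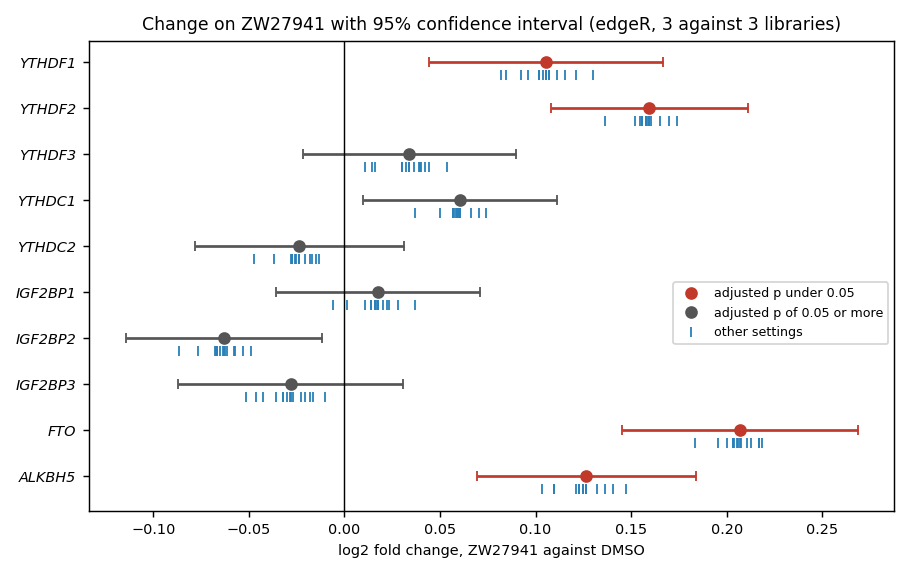
For each of the 10 transcripts (vertical axis), the point is the log2 fold change of ZW27941 against DMSO and the bar its 95% confidence interval from edgeR (n = 3 against 3), red where the adjusted p was under 0.05, and the blue ticks are the values in 15 other settings. The intervals of YTHDF1, YTHDF2, YTHDC1, FTO and ALKBH5 lie above 0 and that of IGF2BP2 lies below 0. Those of YTHDF3, YTHDC2, IGF2BP1 and IGF2BP3 include 0. The intervals are not adjusted for the number of genes, and the adjusted p of YTHDC1 and IGF2BP2 was not under 0.05.

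**Figure D3:**
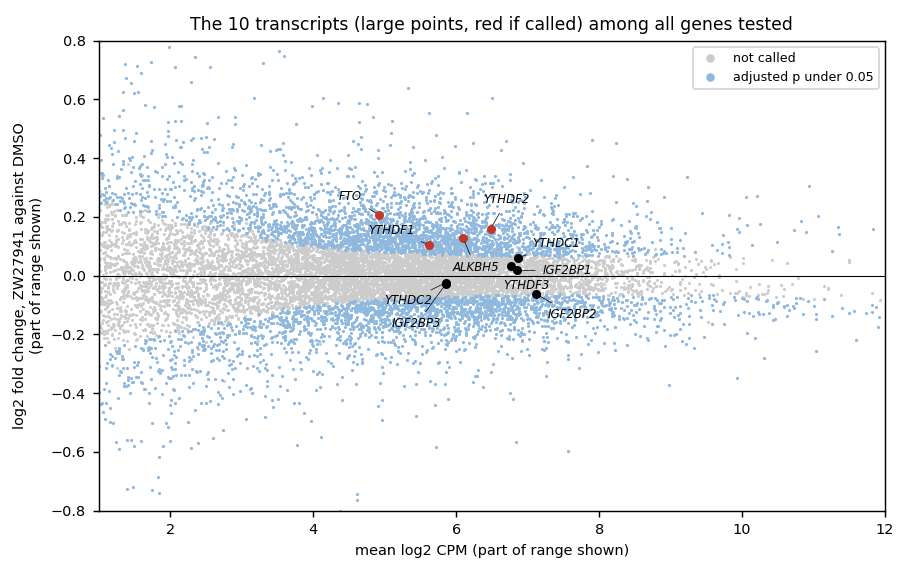
The log2 fold change (vertical axis, from −0.8 to 0.8) of all genes tested is plotted against their mean log2 CPM (from 1 to 12), grey if the adjusted p was 0.05 or more and blue if it was under 0.05, with the 10 transcripts as large points, red if they rose. Genes outside these ranges are not shown, and the 10 transcripts lie between −0.063 and 0.21.

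Among all reader counts, the YTHDF group held 32.9% ± 0.37 of all reader counts in DMSO and 34.4% ± 0.36 on ZW27941, the YTHDC pair 23.7% ± 0.23 and 23.8% ± 0.20, and the IGF2BP group 43.4% ± 0.35 and 41.8% ± 0.51 (SD, n = 3). The YTHDF and IGF2BP shares did not overlap between groups of libraries, and the YTHDC shares did. These shares were computed after the values of single genes had been seen and were not tested. They are shares of counts, and longer transcripts give more counts. They compare the libraries and do not rank the reader groups. The sum of all 10 transcripts was 821 ± 5.33 CPM in DMSO and 846 ± 7.67 CPM on ZW27941, without overlap.

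**Figure D4:**
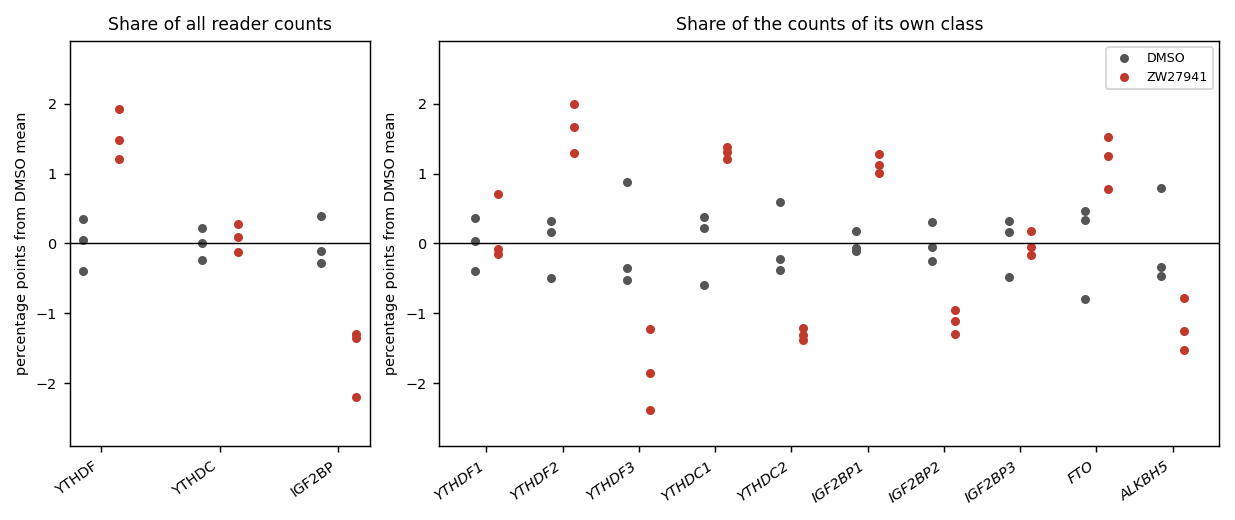
Shares of counts in each library, as percentage points from the DMSO mean (vertical axis), for each reader group among all reader counts on the left and for each transcript within its own group on the right, with DMSO in grey and ZW27941 in red (3 libraries each). The IGF2BP share went down in all 3 ZW27941 libraries while the YTHDF share went up, and within groups the shares of YTHDF1 and IGF2BP3 overlapped.

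Levels of different genes can be compared only per length, here as CPM per kb of the longest coding transcript in GENCODE v29. On that scale the DMSO means ran from 38.6 for IGF2BP2 and 28.9 for YTHDF2 through 23.9 for ALKBH5, 20.7 for YTHDF3, 18.3 for YTHDC1 and 14.4 for YTHDF1 to 13.9 for IGF2BP1, 13.8 for IGF2BP3, 9.25 for YTHDC2 and 2.38 for FTO. Neighbours in this order did not overlap among the DMSO libraries, except IGF2BP1 and IGF2BP3. That covers the spread between libraries and leaves out the choice of length. With the length of all exons, the DMSO mean was 6.88 for IGF2BP3 and 5.40 for YTHDC2, while YTHDF1 stayed at 14.4. The order of the means was the same on ZW27941 and when the length of all exons was used. The longest coding model of FTO is 11.8 kb, and a shorter model would give a higher level per kb, while its fold change does not depend on length.

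**Figure D5:**
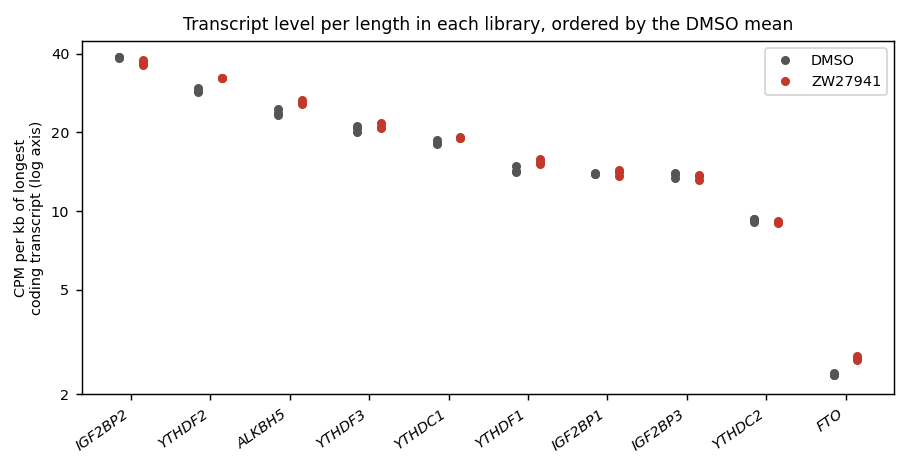
CPM per kb of longest coding transcript (vertical log axis) for the 10 transcripts, ordered by the DMSO mean, with 3 DMSO libraries in grey and 3 ZW27941 libraries in red. IGF2BP2 is at 38.6 and FTO at 2.38 in DMSO, and IGF2BP1 and IGF2BP3 overlap.

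The GGACT core of the m6A consensus occurred between 0.30 times per kb (YTHDF1) and 1.46 times per kb (ALKBH5) in the longest coding transcripts of the 10 genes, with a median of 0.64 against 0.94 over the 12922 tested genes that had such a model. The 4 transcripts that rose included both of these extremes, along with FTO at 0.42 and YTHDF2 at 1.03. No m6A was measured in these libraries, so a count of letters says nothing of whether a site was methylated.

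Of the genes with names derived from these 10, FTOP1, IGF2BP2-AS1 and YTHDF1P1 had at most 12 counts in any library and were not tested. YTHDF2P1 had 12 to 18 counts and YTHDF3-AS1 had 56 to 87, and neither passed the test. Reads counted on these loci were therefore few beside those on the members. Reads aligned to several places were tallied apart from the gene counts, so reads that members share with these loci could not be counted here.

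Other parts of the m6A machinery gave the counts below by the same test. Each count is to be read beside all genes tested, of which 16.3% rose and 13.8% fell. As for the members, shares among genes of like level were not computed. Of 9 genes of the writer complex and its relatives, 7 rose and 0 fell, with a median log2 fold change of 0.17. VIRMA (counted under its older symbol KIAA1429), the scaffold of the complex, rose by 0.33 (adjusted p = 2.65e-09) and RBM15, an RNA-binding adaptor, by 0.36 (adjusted p = 7.75e-08, both from edgeR). WTAP, at 0.067 (adjusted p = 0.0501 from edgeR, named after its value was seen), and METTL3, at 0.013, did not pass. In 3 of 15 other settings 8 rose, namely with library size only, without an expression filter and without DMSO replicate 1. No gene of this list was lower at an unadjusted p under 0.05 either, or by DESeq2.

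Of 11 other proteins reported to bind m6A RNA, 3 rose and 5 fell, with a median of −0.057. By rule LRPPRC, an RNA-binding protein of mitochondria, was named, which fell by 0.17 (adjusted p = 1.40e-05), and EIF3A, a subunit of translation initiation factor eIF3, which rose by 0.14 (adjusted p = 0.00014, both from edgeR). ELAVL1 and RBMX also rose, and FXR2, HNRNPC, SND1 and FXR1 also fell. These 6 were named after their values were seen.

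Partners through which readers act gave 1 call among 11 genes. PABPC1, the poly(A)-binding protein, fell by 0.11 (adjusted p = 0.0038), and SRSF3, a splicing factor bound by YTHDC1, was at 0.057 (adjusted p = 0.107, both from edgeR). The count of genes that rose was 0, with 1 higher at an unadjusted p under 0.05 and 0 by DESeq2. It was 1 without DMSO replicate 1, without ZW27941 replicate 1 and with library size only, and without ZW27941 replicate 3 the count that fell was 2. CNOT1, the scaffold of the deadenylase that YTHDF2 recruits, was at 0.0038, and it was named after its value was seen.

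The other AlkB-type enzymes, relatives of FTO and ALKBH5 that act on other substrates, were 3 higher and 1 lower among 7, and in 12 of 15 other settings 2 were higher. ALKBH2, a DNA repair enzyme, rose by 0.21 (adjusted p = 8.31e-05), and ALKBH8, which modifies tRNA, rose by 0.15 (adjusted p = 0.0048, both from edgeR). ALKBH3 (0.093, adjusted p = 0.0469 from edgeR) rose and ALKBH6 (−0.16) fell, both named after their values were seen. Without DMSO replicate 1, DMSO replicate 2 or ZW27941 replicate 1, 0 of the 7 fell.

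Transcripts reported in earlier work on leukemia as targets of these readers and demethylases did not share a direction. The list mixes targets of readers known for speeding decay with targets of readers known for keeping mRNAs stable. A shared direction was therefore not to be looked for, and the counts below describe the list only. Of 15 listed, 13 passed the filter, 4 rose and 5 fell, beside 16.3% and 13.8% of all genes tested. The median log2 fold change of the list was −0.0031. Without DMSO replicate 3, 2 rose. TACC3, reported for ALKBH5, rose by 0.24 (adjusted p = 4.32e-07), and RARA, reported for FTO, rose by 0.19 (adjusted p = 1.13e-05, both from edgeR). Named after their values were seen, ASB2 (FTO) was at 0.14 and MCM4 (YTHDC1) at 0.092 among those that rose. AXL (ALKBH5) was at −0.38, GPT2 (IGF2BP2) at −0.17, MYC (IGF2BP2) at −0.15, TNFRSF1B (YTHDF2) at −0.15 and SLC1A5 (IGF2BP2) at −0.081 among those that fell. The 3 IGF2BP2 targets listed all fell, and they were grouped after their values were seen. IGF2BP2 itself did not pass, and whether it had a part in these falls was not tested. The targets listed for ALKBH5 moved in opposite directions and LILRB4, listed for FTO and named after its value was seen, was at −0.0031 and did not pass.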

How the data were processed

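RNA from MOLM13 cells given DMSO or ZW27941 (3 libraries each) was sequenced in pairs of reads, and per gene symbol, the authors deposited unnormalized HTSeq counts, 1 set for each library. The submitters' processing notes name HISAT2, SAMtools 1.19.2, HTSeq 2.0.3 and hg38. The annotation and the strand setting are not given in the sources used here. Reads that HTSeq could give to no gene, 37.4% to 39.8% of each library, were left out. The labels plan 50M raw reads a sample (M, 1e6), fewer than the counts on genes, so what 1 count stands for is uncertain and counting error may be understated.

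The analysis used edgeR 4.0.16 in R 4.3.3 (TMM, filterByExpr, quasi-likelihood test with treatment alone, all 6 libraries, Benjamini-Hochberg over 20399 genes, threshold 0.05). Unadjusted p-values printed come from the same fit. CPM were computed with TMM factors. Shares within families were compared by two-sided exact permutation tests. DESeq2 1.42.0 was an alternative, as were other normalizations, filters, the likelihood ratio test, thinning to the smallest total, the replicate number as a block, and each library left out. Counts of replicates differed by more than Poisson noise (chi-square per degree of freedom 4.33 to 11.5), which repeats of 1 sample could also exceed, and no library was merged with another.

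Gene positions, lengths and overlaps came from GENCODE v29 (GRCh38), and upstream sequences from RefSeq (GRCh38.p14). The members and gene lists were chosen with earlier results of these data known. Genes named were all members, METTL3, genes named after a member (-AS or P and a number), the 2 genes of each list that passed with the lowest p (or the 2 of lowest p), and those said to be chosen later.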

Additional observations from a re-analysis of the deposited data

Results flagged for a closer look

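The following are values of reads outside the gene counts, which no comparison of genes used and which were above the level in every DMSO library. In ZW27941 replicate 3, 18.1% of the reads tallied were not aligned, and 16.98% in ZW27941 replicate 1, beside 15.5% to 16.6% in DMSO. In the same library 5.25% were aligned to several places, beside 3.75% to 4.07% in DMSO. In ZW27941 replicate 2, 3.39% had low alignment quality, beside 3.27% to 3.30% in DMSO. Reads on no annotated feature were fewer in all 3 ZW27941 libraries (10.5% to 11.4%) than in all 3 DMSO libraries (11.9% to 12.4%), and the part that this had in the results was not tested.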

How the results depend on the processing

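The 4 transcripts that rose (YTHDF1, YTHDF2, FTO and ALKBH5) passed in each of the 15 other settings, which left out each library in turn, changed the normalization, test or filter, thinned the counts or added a block. The highest adjusted p among these settings was 0.049, for YTHDF1 without DMSO replicate 2. IGF2BP2 was lower and passed with RLE normalization (−0.067, adjusted p = 0.0438), upper quartile normalization (−0.087, adjusted p = 0.0102), DESeq2 (−0.067, adjusted p = 0.0258) and the requirement of 10 or more counts in each library (−0.065, adjusted p = 0.0477), so that 1 member was lower in each. With single libraries left out, IGF2BP2 ran from −0.077 to −0.049, the members that were lower from 0 to 1, and it passed without ZW27941 replicate 1 (adjusted p = 0.0483). YTHDC1 passed with library size only (0.071, adjusted p = 0.0334). With single libraries left out, values that did not pass ran from −0.037 to −0.015 for YTHDC2, 0.0014 to 0.037 for IGF2BP1 and −0.046 to −0.010 for IGF2BP3. IGF2BP1 turned to −0.0058 with upper quartile normalization. The change in the family share of YTHDF1 was 0.16 percentage points, −0.038 per kb and −0.11 to 0.35 with libraries left out, and that of IGF2BP3 was −0.017, 0.15 per kb and −0.26 to 0.14, with reversals of 0.066 without DMSO replicate 1, 0.14 without DMSO replicate 3, 0.059 without ZW27941 replicate 1 and 0.0025 without ZW27941 replicate 3 (YTHDF1: −0.035 without DMSO replicate 3 and −0.11 without ZW27941 replicate 3). The cause of these changes was not tested.

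Same-numbered libraries correlated at −0.012 to 0.017 in their deviations from the group mean, beside −0.032 to 0.021 for libraries with different numbers. These values cannot decide whether the libraries were paired, since no known pair was there for reference. With the replicate block, 4 members were higher and 0 lower.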
